A study of Caenorhabditis elegans with 2 samples.

Results

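The 7 Caenorhabditis elegans genes aakg-1, ndx-4, ubc-14, vps-28, wsp-1, cpsf-1 and atf-7 have some of the strongest HIM-1-GFP peaks of the list. These lie at their 3' ends or up to 1225 bp past them. The genes are 7 of 19973 protein-coding genes and were chosen by the signal of these peaks, among the 15 highest of the optimal list. Signal alone did not choose them, since the 3' end summits ranked 3, 6, 7, 11, 12 and 14 were at other genes. Those ranked 3, 6 and 7 were stronger than the summits of cpsf-1 and atf-7. What else entered the choice is not recorded. The ranks and signals of the 7 genes are therefore given as a description, with no test. At each gene every summit from the 5' end to 2 kb past the 3' end was taken, with gene ends from the Ensembl annotation of WBcel235, the sequence of build ce11. This gave 13 of the 2051 optimal summits. Of these, 6 were the strongest at a gene, because ubc-14 and vps-28 share theirs.

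Chromatin immunoprecipitation and sequencing was done on whole young adult hermaphrodites of strain YL577, 47 hours after release of starved first-stage larvae. These transgenic animals stably express HIM-1 fused at its C-terminus to GFP and FLAG. The 2 libraries are biological replicates 1 and 2 of this single group, with no untagged or other group among the samples analysed here. The labels describe an anti-GFP antibody but name him-1 in the antibody field, and they do not say whether the replicates were separate cultures. Whole animals were used, so the tissue in which a peak arose is not known. Read depth is unknown, since the files are peak lists with no counts.

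HIM-1 is the worm SMC-1 subunit of cohesin, a ring-shaped complex that encircles DNA. Cohesin holds sister chromatids together and, in many organisms, extrudes or stabilises chromatin loops. In yeast, cohesin is known to gather between convergent genes, which are transcribed towards each other so that their 3' ends meet.

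The sequences below are those of the loci on chromosomes III and IV, read from the RefSeq genome of WBcel235 on the plus strand. They show the DNA under the strongest summit of all, at aakg-1, and what lies between the facing 3' ends at 3 other genes. In the first 3 lines capitals mark the 11 bases centred on a summit. In the last 2 lines the whole gap between the 3' ends is in capitals, because the summit lay beside it, inside the gene. No line includes bases of an annotated exon.
aakg-1, summit ranked 1, chrIII:12537364-12537514: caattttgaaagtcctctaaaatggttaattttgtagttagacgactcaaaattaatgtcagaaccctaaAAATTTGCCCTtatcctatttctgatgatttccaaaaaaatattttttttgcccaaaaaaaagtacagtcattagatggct
aakg-1, summit ranked 10, chrIII:12537571-12537721: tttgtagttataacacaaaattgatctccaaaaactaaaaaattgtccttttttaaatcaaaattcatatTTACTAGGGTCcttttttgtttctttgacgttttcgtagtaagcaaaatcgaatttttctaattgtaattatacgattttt
atf-7 and cpg-1, from 3' end to 3' end, chrIII:4491393-4491626: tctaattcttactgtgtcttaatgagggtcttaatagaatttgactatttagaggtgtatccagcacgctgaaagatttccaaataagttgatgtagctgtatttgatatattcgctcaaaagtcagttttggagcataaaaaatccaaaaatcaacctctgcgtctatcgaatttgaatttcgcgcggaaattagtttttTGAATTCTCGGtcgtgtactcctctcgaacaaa
wsp-1 and pct-1, from 3' end to 3' end, chrIV:8188883-8188903: GCTTCTACTTCTCATCGAATT
cpsf-1 and xpc-1, from 3' end to 3' end, chrIV:2009028-2009037: GAATTTTGTG
The 2 aakg-1 windows held 29.1% and 23.8% G and C, and the atf-7 gap held 35.5%. The poly(A) signal hexamer AATAAA was on neither strand of any of these 5 sequences. The gaps begin at the annotated 3' ends and so leave out the 3' UTRs. Within 100 bp of the summit, which takes in sequence inside the gene, AATAAA was present at atf-7, wsp-1 and cpsf-1.

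Each of the 7 genes faced its neighbour 3' end to 3' end. The downstream protein-coding neighbour was on the opposite strand for 7 of 7 genes, against 45.1% of all protein-coding genes and 65.4% of the 811 genes nearest the other optimal summits at 3' ends. That comparison set held 878 summits that lay in a 3' UTR or up to 2 kb past a 3' end, over 500 bp from any 5' end. The neighbour was within 1 kb at 6 of the 7, against 34.4% of all genes and 54.7% of the comparison genes. The genes ubc-14 and vps-28 are each other's neighbour, so 1 pair counts for both of them. Each comparison summit gave only the gene with the nearest 3' end. All 7 also had their upstream neighbour on the same strand, within 500 bp at 4 of them, against 10982 and 4003 of the 19973 protein-coding genes. Of the comparison genes 58.0% had it on the same strand and 26.0% within 500 bp. An overlap counted as within 500 bp in every group, and at ndx-4 the upstream neighbour Y37H9A.5 overlapped the Ensembl gene. RefSeq gives ndx-4 a shorter span, with its 5' end at 13794152. Whether orientation entered the choice of the genes is not recorded, and no test was made on these 6 chosen loci.

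**Figure D1:**
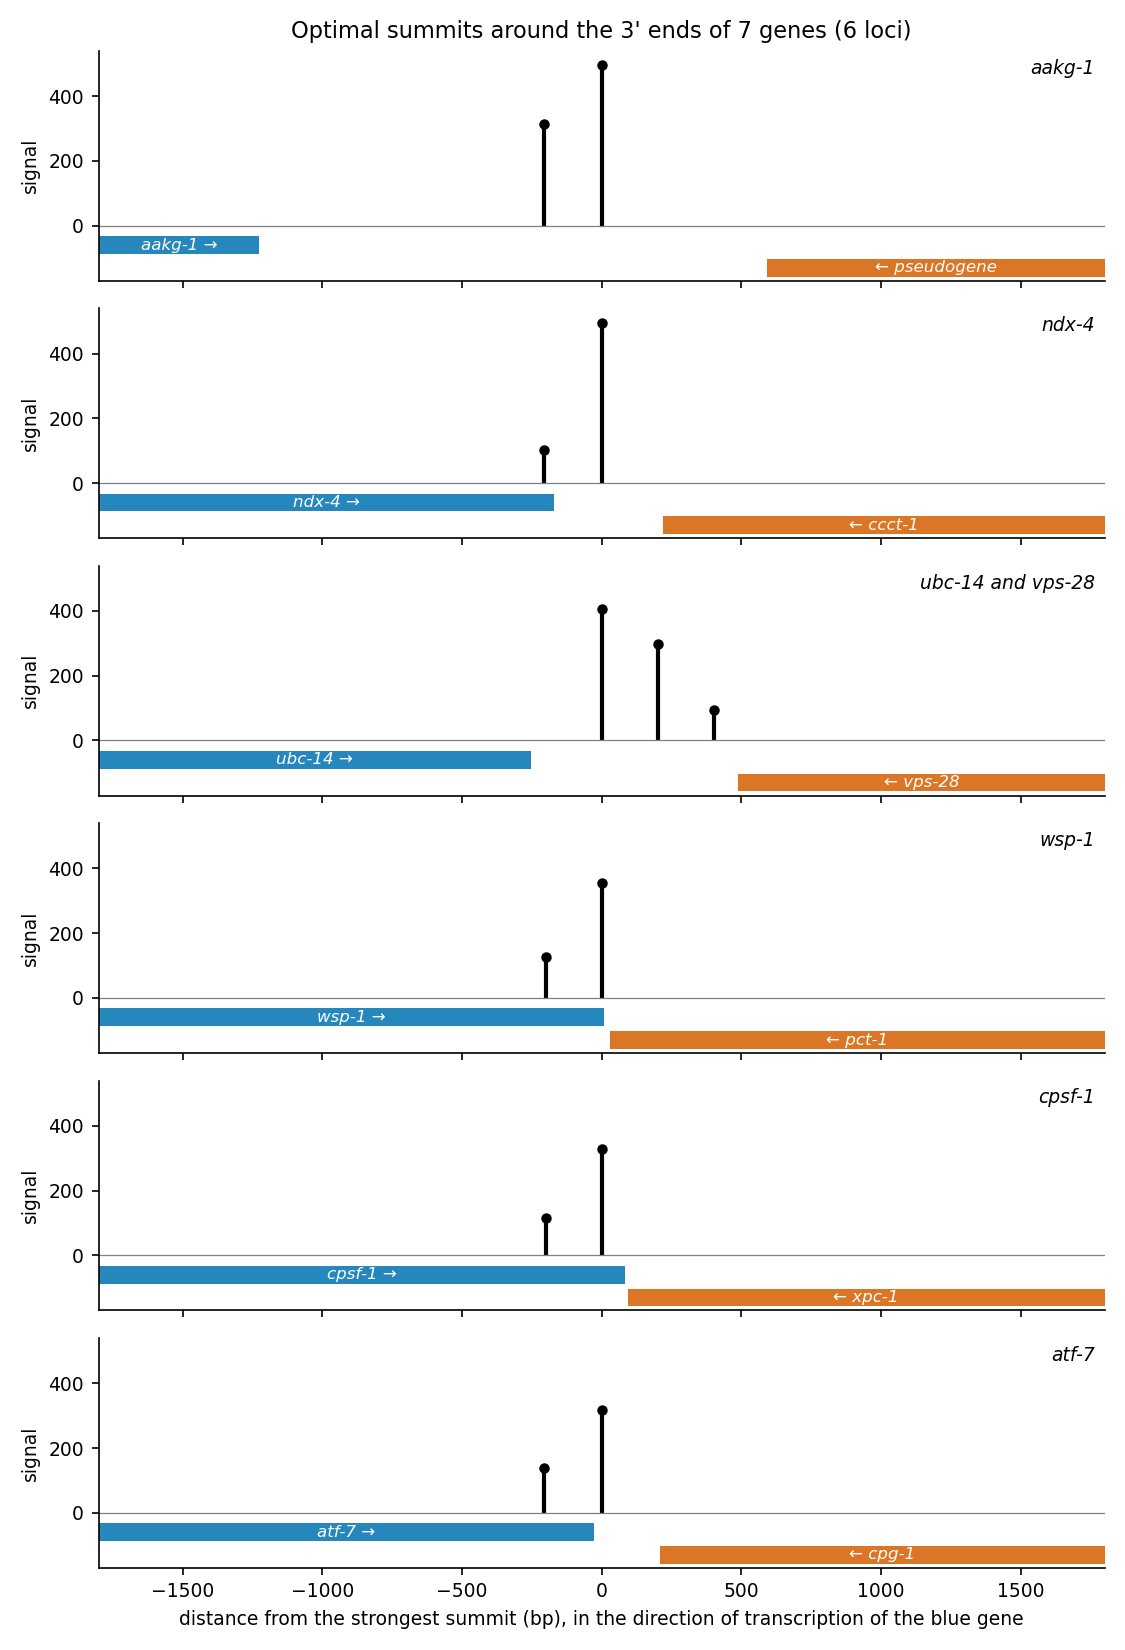
Optimal HIM-1-GFP summits (black stems, height gives the authors' peak signal) against distance in bp from the strongest summit of each locus, read in the direction of transcription of the blue gene. Bars show the gene (blue) and the next gene downstream (orange) with arrows for their strand; at each locus the orange gene runs towards the blue one, and a weaker summit lies 200 to 207 bp from the strongest.

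The strongest peak of the list lay beyond aakg-1, a gene for a gamma subunit of AMP-activated protein kinase, which senses cellular energy. The gene (WBGene00013732, chromosome III, 12538664 to 12575401, minus strand) spans 36738 bp. Its summit at 12537439 had signal 497 and lay 1225 bp past the 3' end, in sequence with no annotated exon. In the replicates' own lists it had signal 225 and rank 1 in replicate 1, and signal 297 and rank 2 in replicate 2. The mean rank was 1.5 ± 0.71 (SD, n = 2). A summit of signal 314, ranked 10, lay 1018 bp past the 3' end in the same interval. This was the longest distance from a 3' end among the 7 genes, and the only locus where the nearest facing gene was not protein-coding. The facing gene was the pseudogene WBGene00014613 on the plus strand (12528287 to 12536848), 1815 bp from aakg-1. The strongest summit lay between them, nearer the 3' end of the pseudogene than that of aakg-1. The nearest protein-coding neighbour on that side, sql-1, ended 10611 bp away.

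The peak at ndx-4, which encodes a Nudix hydrolase of dinucleoside polyphosphates, was almost as strong. The gene (WBGene00003581, chromosome I, 13792637 to 13797263, minus strand) had its summit at 13792468, with signal 496 and rank 2. The signal was 203 at rank 4 in replicate 1 and 303 at rank 1 in replicate 2, a mean rank of 2.5 ± 2.1 (SD, n = 2). Of all 7 genes this one had the replicate summits closest together, 1 bp apart. The summit fell within the 387 bp between ndx-4 and ccct-1 (plus strand), at 169 bp from the first 3' end and 219 bp from the second. A summit of signal 102, ranked 651, lay in the 3' UTR of ndx-4, 36 bp inside the gene.

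The genes ubc-14, for an E2 ubiquitin-conjugating enzyme, and vps-28, for a subunit of the ESCRT-I complex that sorts ubiquitinated membrane proteins, share 1 gap and 1 set of summits. They are ubc-14 (WBGene00006709, chromosome I, 13581698 to 13585295, plus strand) and vps-28 (WBGene00013598, 13586037 to 13588831, minus strand). The 741 bp between their 3' ends held 3 optimal summits, the most at any of the 7 genes, at 13585549, 13585749 and 13585952. Their signals were 407 (rank 4), 298 (rank 13) and 95.3 (rank 772). The strongest lay 254 bp past the 3' end of ubc-14 and 488 bp past that of vps-28, so it was nearer ubc-14, while the third lay 85 bp past that of vps-28. In replicate 1 the strongest had signal 207 at rank 3 and in replicate 2 signal 212 at rank 4, a mean rank of 3.5 ± 0.71 (SD, n = 2). The third summit ranked 6909 in replicate 1 and 1714 in replicate 2. The signals fell from the ubc-14 side to the vps-28 side in both replicates.

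At wsp-1, the worm homologue of the actin regulator WASP, the genes nearly touched. The gene (WBGene00006957, chromosome IV, 8188904 to 8198951, minus strand) ends 21 bp from the 3' end of pct-1, a gene for a cyclin-dependent kinase of the PCTAIRE family. Its summit at 8188911 had signal 355 and rank 5 and lay in the 3' UTR, 7 bp inside the gene. The signal was 157 at rank 7 in replicate 1 and 205 at rank 5 in replicate 2, a mean rank of 6.0 ± 1.4 (SD, n = 2). Replicate 1 placed the summit 16 bp past the 3' end and replicate 2 placed it 6 bp inside, so the summit was not separable from the gene end at the 22 bp by which the replicates differed.

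At cpsf-1, which encodes a subunit of the cleavage and polyadenylation specificity factor that cuts pre-mRNA at its 3' end, the gap was 10 bp. The gene (WBGene00022301, chromosome IV, 2009038 to 2032996, minus strand) faces xpc-1, a DNA repair gene. The summit at 2009120 had signal 328 and rank 8 and lay in the 3' UTR, 82 bp inside the gene. The signal was 157 at rank 6 in replicate 1 and 178 at rank 11 in replicate 2, a mean rank of 8.5 ± 3.5 (SD, n = 2), the widest spread of the 7. Of the 4 coding transcripts of cpsf-1, some end earlier, and against the median transcript end the summit lay 34 bp past the 3' end.

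The peak at atf-7, which encodes a bZIP transcription factor of the p38 MAPK immunity pathway, faced an eggshell gene. The gene (WBGene00000223, chromosome III, 4491627 to 4499045, minus strand) lies 234 bp from the 3' end of cpg-1, a gene for an eggshell chondroitin proteoglycan. Its summit at 4491599 had signal 317 and rank 9 and lay 28 bp past the 3' end, in the gap printed above. The signal was 149 at rank 9 in replicate 1 and 173 at rank 12 in replicate 2, a mean rank of 10.5 ± 2.1 (SD, n = 2). Replicate 1 put the summit 3 bp inside the gene and replicate 2 put it 28 bp past the end. Among the facing genes, cpg-1 and vps-28 had an optimal summit within 500 bp of the 5' end, with signal 232 at rank 41 for cpg-1.

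**Figure D2:**
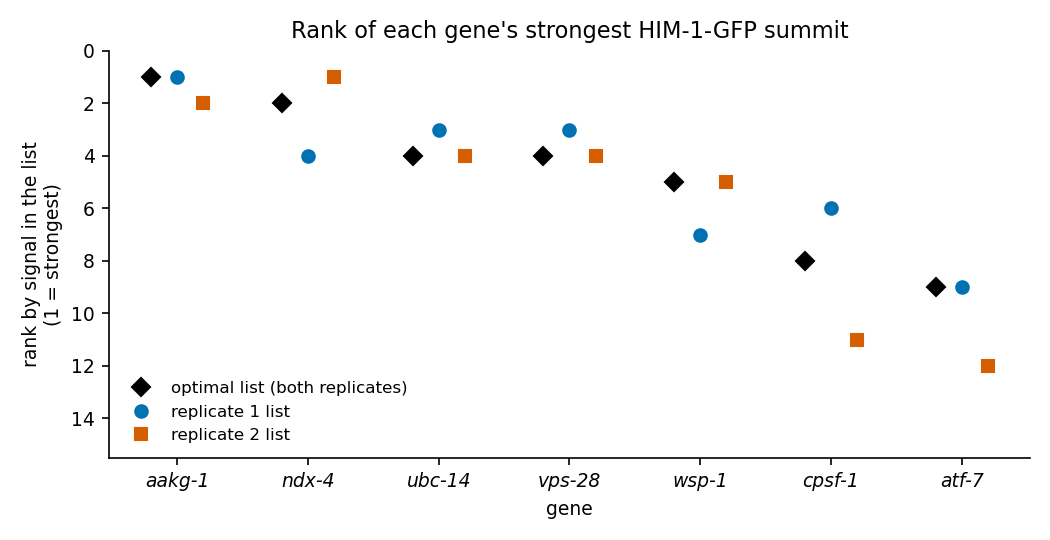
Rank by signal of each gene's strongest summit (y axis, 1 is the strongest) in the optimal list (diamonds) and in the separate lists of replicate 1 (circles) and replicate 2 (squares), for the 7 genes on the x axis. The ranks lie between 1 and 12 in every list; ubc-14 and vps-28 share 1 summit and so have the same ranks.

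The name of the set holds for 5 of the 7 genes in the strict sense, since the summits at wsp-1 and cpsf-1 lay in a 3' UTR and not past the 3' end. All 7 were among the 15 highest of the list in both replicates as well, where the ranks ran from 1 to 9 in replicate 1 and from 1 to 12 in replicate 2. Such a summit anywhere from the 5' end to 2 kb past the 3' end was present at 10.9% of all protein-coding genes, and nothing is read from the 7 of 7 here, since summits chose the genes. The lowest of the members' strongest signals was 317, at atf-7. The next summits at 3' ends with no non-coding gene nearby had 298 (rank 14) past Y48G1C.8 and 285 (rank 17) in the 3' UTR of sqv-5. The replicates placed the summits closely. At all 6 strongest summits both replicates had a summit within 50 bp, against 66.6% of the 2051 optimal summits and 62.2% of the other summits at 3' ends, though the 6 were chosen for signal and were not compared with summits of equal signal. The replicate summits were 1 to 42 bp apart.

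No annotated non-coding gene lay within 250 bp of any of the 6 strongest summits, whereas 32.9% of all optimal summits and 26.4% of the other summits at 3' ends had one. The nearest such genes were 4263 bp away at wsp-1, the ncRNA gene C07G1.12, and 44286 bp away at ubc-14 and vps-28, the microRNA gene cel-mir-8205. At cpsf-1 it was the snoRNA gene Y76B12C.11, 16791 bp away, and at aakg-1 and atf-7 the ncRNA genes Y111B2A.32 (12367 bp) and C07G2.4 (6230 bp). At ndx-4 it was the piRNA gene 21ur-15569 (11117 bp). The 7 genes were listed by name, and whether nearby non-coding genes entered that choice is not recorded. The 3' end summits ranked 3, 6, 7, 11 and 12, all at other genes, each had a non-coding gene within 250 bp. The absence at these 6 summits thus cannot be told apart from the choice of the genes, and nothing is read from it.

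In their bodies, away from the 3' end, the 7 genes held only weak peak entries. The list called on both replicates together, before the threshold on repeatability, holds weak entries as well. In it the highest entry inside the gene and over 500 bp from the 3' end had signal 30.3 at aakg-1, 27.2 at ndx-4, 26.3 at ubc-14, 24.4 at vps-28, 34.1 at wsp-1, 23.1 at cpsf-1 and 33.4 at atf-7. The median entry of that list had signal 29.6, so 3 of the 7 lay above it and 4 below. The lowest, at cpsf-1, ranked 16121 of the 18314 entries. The lowest signal in that list was 21.7, and the −log10 q-value of these body entries was 0.04 (cpsf-1) to 0.38 (wsp-1). The summit at the 3' end was 9.49 times (atf-7) to 18.2 times (ndx-4) as high as the highest body entry. Because the body entries lay near the floor of the list, the ratios do not measure a level in the gene body. Such ratios are high in part because that summit's signal chose the genes, and other genes were not compared. The lists give no signal between entries. In RefSeq the 5' end of ndx-4 is at 13794152, so its entry and ratio hold for the Ensembl gene only. No such entry in the gene body was among the optimal peaks.

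At the 5' ends, 1 of the 7 genes had an optimal summit within 500 bp, against 4.47% of all protein-coding genes and 9.74% of the comparison genes at 3' ends. The one was vps-28, with a summit 182 bp upstream of its 5' end (signal 77.6, rank 1219), in the 346 bp between vps-28 and eipr-1. In the replicates' own lists it ranked 683 in replicate 2 and 4008 in replicate 1, and it was not among the 2051 strongest entries of replicate 1. The pooled list, which is longer, had an entry within 500 bp of the 5' end at 5 of the 7 genes, against 25.5% of all protein-coding genes. These were aakg-1 (signal 45.02, rank 3708), cpsf-1 (37.3, rank 5421), atf-7 (30.8, rank 8362), ndx-4 (22.4, rank 17167) and vps-28. The −log10 q-value was 3.54 at vps-28, but 1.02 at aakg-1, 0.53 at cpsf-1, 0.24 at atf-7 and 0.03 at ndx-4. The pooled list includes background, so these low entries are not read as peaks at the 5' end. The ndx-4 entry was near the Ensembl 5' end only, since RefSeq places that end at 13794152. The pooled list had no entry within 500 bp of the 5' end at ubc-14 or wsp-1. Neither replicate had one at wsp-1, while replicate 1 had a weak entry of rank 7317 at ubc-14.

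**Figure D3:**
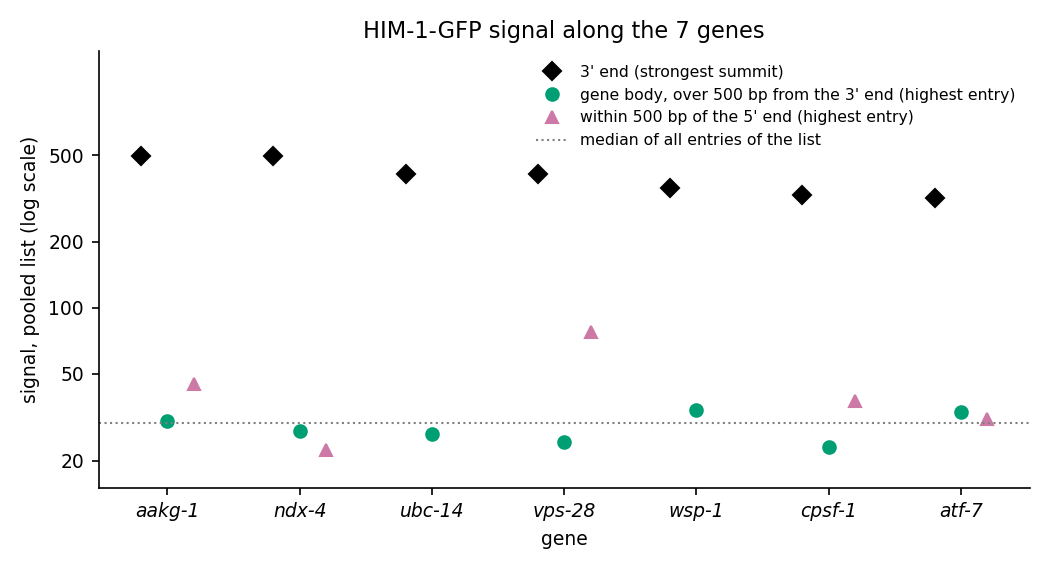
Signal in the pooled ce11 list (y axis, log scale) for the strongest summit at the 3' end (diamonds), the highest entry in the gene body over 500 bp from the 3' end (circles) and the highest entry within 500 bp of the 5' end (triangles), for the 7 genes. The diamonds lie between 317 and 497, the circles between 23.1 and 34.1 and the highest triangle, at vps-28, at 77.6; a missing triangle means that the list held no entry there, and the dotted line is the list's median of 29.6.

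Each strongest summit had a weaker companion at nearly the same distance. The spacing was 200 bp at wsp-1 and at ubc-14 and vps-28, 201 bp at cpsf-1, 205 bp at ndx-4 and atf-7, and 207 bp at aakg-1. The companion's signal was 20.6% of the strongest at ndx-4, 35.2% at cpsf-1, 36.0% at wsp-1, 43.9% at atf-7, 63.3% at aakg-1 and 73.2% at ubc-14 and vps-28. The replicates had companions at 199 to 227 bp, and only those of ndx-4 fell below 10% of the strongest, at 8.13% in replicate 1 and 7.95% in replicate 2. All 6 thus had another optimal summit within 250 bp, against 18.7% of the other summits at 3' ends and 14.6% of all optimal summits, and the spacing was 190 to 210 bp for 78.6% of all optimal summits that had one. Among the 7 other genes with the highest summits at 3' ends, described further on, 6 also had a companion at that spacing. No 2 summits lay closer than 199 bp in any of the 4 ce11 lists. The companions of these genes were thus at or just above the shortest spacing that the lists held.

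**Figure D4:**
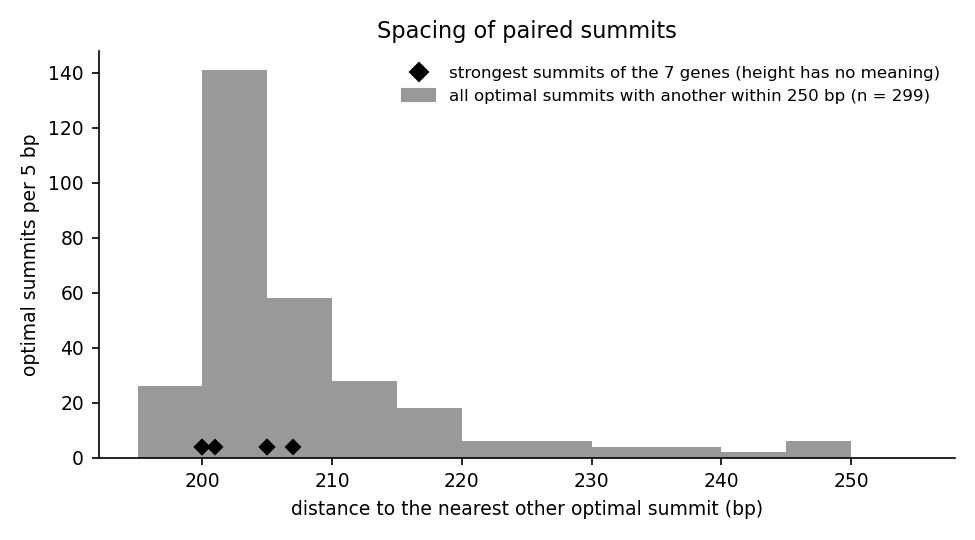
Histogram of the distance (x axis, bp) from an optimal summit to the nearest other optimal summit, for the 299 summits with another within 250 bp (grey bars, 5 bp wide, y axis in summits per bar), with the 6 strongest summits of the 7 genes as diamonds at 200 to 207 bp. Diamonds coincide at 200 and at 205 bp, and no distance is below 199 bp.

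The strongest summits of these genes lay in DNA poor in G and C. The share within 100 bp of the summit was 25.4% at ubc-14 and vps-28, 26.4% at ndx-4, 28.9% at cpsf-1, 29.4% at aakg-1, 32.8% at wsp-1 and 33.8% at atf-7. The median of the 6 was 29.1%, and at the replicates' own summits it was 28.7% ± 0.18 (SD, n = 2). The median was 36.8% at the other summits at 3' ends, 34.8% at the 646 of them with no non-coding gene within 250 bp, and 38.3% over all optimal summits. The groups overlapped, as 35.4% of the other summits at 3' ends were at or below 33.8%. The sequence marked in lower case as repetitive or of low complexity in the RefSeq genome made up between 40.8% (wsp-1) and 99.5% (ubc-14 and vps-28) of the window, with a median of 73.1%. The median was 32.3% at the other summits at 3' ends and 39.8% at those with no non-coding gene within 250 bp. These groups overlapped too, as 38.8% of the other summits at 3' ends were at or above 40.8%.

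**Figure D5:**
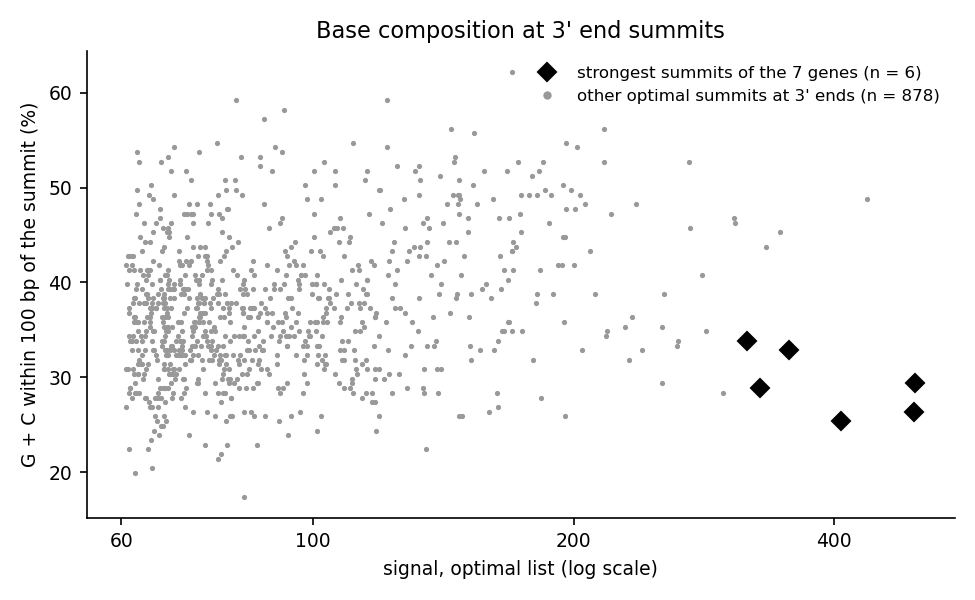
Share of G and C within 100 bp of the summit (y axis, percent) against signal in the optimal list (x axis, log scale), for the strongest summits of the 7 genes (black diamonds, n = 6) and for the other optimal summits at 3' ends (grey points, n = 878). The diamonds lie between 25.4% and 33.8%, in the lower part of the grey points; they stand at the right because signal chose the genes.

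Exact 32-base words with more than 1 copy in the genome were present at 3 of the 6 loci. All 32-base words within 100 bp of the summit occurred once in the genome at wsp-1, cpsf-1 and atf-7, as at 64.6% of the other summits at 3' ends and 66.2% of all optimal summits. At aakg-1 93.5% of the words were unique and none had over 2 copies. At ubc-14 and vps-28 90.0% were unique with up to 19 copies of 1 word, and at ndx-4 80.0% with up to 9 copies. How reads from repeated sequence were placed is not given in the sources used here, and the part of repeats in these signals was not tested. The hexamer AATAAA, searched on both strands, was within 100 bp of 4 of the 6 summits, against 41.5% of the other summits at 3' ends and 43.1% of all. A run of 8 T or 8 A was at 4 of 6, against 24.7% and 20.9%, and GAGAGA (or TCTCTC on the other strand) at 0 of 6, against 13.0% and 14.8%.

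The 5 closely facing pairs among these loci were at or near the top of all such pairs. Of the 1824 pairs of convergent protein-coding genes up to 1 kb apart, 160 (8.77%) had an optimal summit between the 3' ends or up to 250 bp inside them. By signal, the pairs of ndx-4, ubc-14 with vps-28, wsp-1, cpsf-1 and atf-7 came in places 1, 2, 3, 5 and 6. High places follow from the choice of genes with strong summits, but signal alone would also have taken place 4. Place 4 was nep-25 with ZK1248.17, whose summit (signal 346) lay beside the SL2 RNA gene sls-2.1. The gaps of the 160 pairs had a median of 324.5 bp, and the gaps of all 1824 had a median of 318.5 bp. Those of the 5 pairs ran from 10 to 741 bp, so both nearly touching and widely spaced 3' ends were present.

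Apart from the 7 genes, the genes with the highest summits at 3' ends were ZK994.6 (436), nep-25 (346), cnnm-3 (334), top-1 (307), gei-8 (306), Y48G1C.8 (298) and sqv-5 (285). Of these signals 3 were above the lowest of the 7 genes' strongest signals, 317 at atf-7. The first 5 had a non-coding gene within 250 bp, namely a snoRNA gene at ZK994.6, SL2 RNA genes (annotated as snRNA) at nep-25 and top-1, and tRNA genes at cnnm-3, gei-8 and top-1. The share of G and C there was 43.8% to 48.8%, above the 33.8% that was the highest of the 7 genes. The remaining 2 had no such gene and were closer to the 7 genes in composition, with 28.4% at Y48G1C.8 and 34.8% at sqv-5, a chondroitin synthase gene that faces T24D1.2 across 17 bp. The downstream neighbour was convergent at 5 of these 7 other genes, all but cnnm-3 and Y48G1C.8, against 7 of the 7 genes described here. Of the 5, ZK994.6 and gei-8 overlap that neighbour. Their summits lay 1849 and 1477 bp past the 3' end, so not in a gap between facing 3' ends. The replicates ranked the summit at sqv-5 at 5 (replicate 1) and 47 (replicate 2).

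Genes related in function to the 7 had an optimal summit up to 2 kb past the 3' end in 11 of 73 cases (15.1%), against 7.75% of all protein-coding genes. E2 ubiquitin-conjugating enzymes other than ubc-14 made up 6 of the 11, out of 20 in that list. They were ubc-25 (signal 132), ubc-1 (117), ubc-18 (92.4), ubc-13 (85.8), ubc-23 (79.5) and ubc-7 (62.98), with summits 6 bp (ubc-7) to 425 bp (ubc-23) past the 3' end. Of the 14 other genes of pre-mRNA 3' end processing, 3 had one, the cleavage factor genes cpf-2 (96.8), pcf-11 (87.6) and suf-1 (71.5), at 227, 1690 and 1215 bp. Of the 13 genes of the WASP, WAVE and Arp2/3 group 1 did, arx-5 (65.4), and of the 7 Nudix genes 1 did, ndx-6 (72.2). None of the 8 other AMPK subunit genes did, none of the 3 other ESCRT-I genes, and none of the 8 other genes of the p38 pathway. This count takes only summits past the 3' end, whereas those of wsp-1 and cpsf-1 lay inside the gene. Within 500 bp of the 5' end, 10 of the 73 had an optimal summit, against 4.47% of all protein-coding genes. A share above that of all genes was therefore not particular to the 3' ends of the related genes. From the 5' end to 2 kb past the 3' end, 16 of the 73 had an optimal summit (21.9%, against the 10.9% of all protein-coding genes given above). Among these, the 3' end processing gene clpf-1 (76.2) and the p38 pathway genes tir-1 (124) and nsy-1 (67.97) had theirs 17, 104 and 243 bp inside the 3' end. The highest signal at a related gene, 132 at ubc-25 (rank 345), was below the lowest of the strongest signals of the 7 genes, 317 at atf-7.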

How the data were processed

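The deposited files are peak lists on ce10 and ce11. Per the deposited file lists, the authors called peaks and background against a control in each replicate and in both together, and the optimal list was made from these by the irreproducible discovery rate, which keeps peaks of repeatable rank. No aligner or caller is named in these sources. Every entry has a signal and a −log10 q-value, both deposited by the authors, and a summit. The −log10 q-value of all 6 strongest summits was 3.54, the highest of the optimal list, as for 84.2% of that list. The signal scale differs between lists, so signals were compared within a list only. The deposited ce11 lists held 2051 (optimal), 18314 (pooled), 22720 (replicate 1) and 24220 (replicate 2) summits. Optimal signals equal those of the pooled list at these genes.

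Summits are 1-based on ce11. Genes came from Ensembl release 115, with RefSeq ends as an alternative, and non-coding genes were all RNA genes except pseudogenes. Neighbours were the nearest protein-coding genes not nested in the gene. The distance and window arithmetic was checked on simulated summits, which does not test file reading, coordinates or annotation. Python 3.11.15 with pandas 2.3.3 was used. No test was made: the members, the lists of related genes and the comparisons were chosen with earlier results of these data known. The gene-body, upstream-neighbour, companion-spacing, repeat, motif, facing-pair and signal-quartile descriptions, the ce10 tolerance of 20 bp and the removal of the 7 genes' own summits from the comparison set were added after values had been seen. The genes named are the 7, their neighbours, non-coding genes nearby, the 7 other genes with the highest summits at 3' ends, related genes with a peak past the 3' end, and, chosen after their values were seen, the nearest non-coding genes, ZK1248.17, clpf-1, tir-1 and nsy-1. Sequence of ndx-4, ubc-14 and vps-28 is not printed.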

Additional observations from a re-analysis of the deposited data

How the results depend on the processing

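Counts for the 7 genes were recomputed with other windows, other annotations, the pooled list and each replicate's own list. The 5 genes with the strongest summit past the 3' end became 4 with windows of 500 bp or 1 kb, 5 with RefSeq ends and 6 against the median transcript end. The count with an optimal summit at the 5' end was 0 to 1 with a replicate left out, taking the 2051 strongest entries of the other's list, and was 0 for replicate 1. The median share of G and C was 27.7% within 50 bp and 28.6% within 250 bp of the summits, and 28.6% to 28.9% with 1 replicate left out. The counts of convergent neighbours (7), non-coding genes nearby (0) and ranks among the 15 highest (7) were equal under every alternative run, and summits of both replicates lay within 25 bp at 5 genes. Related genes with a peak past the 3' end numbered 12 among the 2051 strongest entries of replicate 2 and 13 among those of replicate 1. On ce10, the entry was identified by its rank on the chromosome, width and summit offset for 5 genes, with the ranks of ce11. It was not identified in the optimal list for aakg-1 and wsp-1, so no rank is given. Read depth is unknown, and with 2 replicates of 1 group an SD rests on 2 values. No paired analysis was possible because the samples form 1 group.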

Other observations

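Base composition was also described against signal at 3' ends away from the 7 genes. Among the 646 other optimal summits at 3' ends with no non-coding gene within 250 bp, the median share of G and C was 34.8% in the 162 with the lowest signals (60.8 to 67.97) and 34.8% in the 162 with the highest (100.7 to 298). Over these summits signal and composition were nearly unrelated (Spearman's rho 0.02, n = 646 sites that share the same libraries). Among the 232 summits at 3' ends with a non-coding gene nearby, rho was 0.34 and the median share of G and C was 44.3%. These are descriptions across sites, which are not replicates.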
